A study of Mus musculus with 14 samples.

Results

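Lysosome and autophagy genes were followed in single blood progenitors of the mouse, with the monocyte lineage set against stem-like cells. The set holds 37 named genes of the 22842 genes listed in both count tables: 19 of the lysosome (membrane proteins, cathepsins, other hydrolases, lipid carriers and cofactors) and 18 of autophagy and its transcription control. They were taken by name (LAMP1, CTSS, MAP1LC3B, FOXO3 and so on, written here as the mouse symbols Lamp1, Ctss, Map1lc3b and Foxo3) from a list drawn up with earlier results of these data known. No member is among the marker genes used to gate the cells. The study traced the progeny of adult hematopoietic stem cells (HSC) in unperturbed mice with an inducible label and read single cells with a Smart-seq2 variant that sequences the 3′ end of each transcript. Lineage-negative (Lin-) cells positive for the reporter, which the labels call Tom, were sorted from 5 mice into 14 plates. Days 3 and 10 have a single animal each, m4539 with 2 plates and m4533 with 3 plates. Day 17 has 3 animals, m4528 on 4 plates and m605 and m606 on 2 each, plus 1 plate on which m605 and m606 were mixed.

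All groups share the Lin- Tom+ sort, and the labels give neither genotype, strain, sex nor age, nor the event from which days were counted. Gates were set by marker genes in cells with at least 500 detected genes and 10000 counts, which kept 1010 of 9357 barcodes. A cell went to the lineage with the largest share of its marker list above 10 counts, if that share was at least 25%. In the 5 mice this gave 102 monocyte-gated, 81 neutrophil-gated, 52 basophil or mast cell-gated, 97 megakaryocyte-gated, 111 erythroid-gated and 346 HSC-gated cells. Counts were then summed per mouse and gate wherever a mouse had at least 10 such cells, and levels are CPM of these sums, that is, a gene's counts relative to the total count after TMM scaling.

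The lysosome is the acidic compartment in which cathepsins (proteases) and glycosidases break down material taken up by endocytosis or delivered by autophagy. In autophagy, the Ulk1 kinase and the Becn1 complex start a membrane that grows by conjugation of ubiquitin-like Atg8 proteins (the Lc3 and Gabarap families) and finally fuses with the lysosome. Mononuclear phagocytes are known for a high content of lysosomal proteases, and autophagy under FoxO control is known from mouse HSC as a means of surviving metabolic stress.

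The transcription factors Tfeb and Tfe3 bind the E-box CACGTG, often as GTCACGTG, in promoters of lysosomal and autophagy genes. Promoters of RefSeq (GRCm38.p6; 250 bases before to 50 after a start) were at hand for 30 of the 37 members. On either strand, CACGTG, which reads the same on both, stood in 5 of 16 lysosome genes (31.2%; Ctsa, Ctsd, Ctsl, Gla and Lamp1) and 3 of 14 autophagy genes (21.4%; Atg3, Atg5 and Atg7), against 8.09% of all 27025 genes. The longer GTCACGTG, which contains the shorter motif, stood in 4 of 16 (25%) and 2 of 14 (14.3%), against 2.55%. Stretches before the start that lie in no annotated exon are shown for 3 members described in detail below, Lamp1, Ctss and Map1lc3b, and for Atg5, which holds the motif and was called in no comparison, in lower case on the plus strand with CACGTG in capitals.
Lamp1, chr8:13158911-13159160: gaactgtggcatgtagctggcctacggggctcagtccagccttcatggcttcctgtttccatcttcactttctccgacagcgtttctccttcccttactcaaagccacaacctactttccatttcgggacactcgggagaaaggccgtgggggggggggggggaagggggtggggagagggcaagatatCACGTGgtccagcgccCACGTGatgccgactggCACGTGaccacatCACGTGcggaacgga
Ctss, chr3:95526536-95526785: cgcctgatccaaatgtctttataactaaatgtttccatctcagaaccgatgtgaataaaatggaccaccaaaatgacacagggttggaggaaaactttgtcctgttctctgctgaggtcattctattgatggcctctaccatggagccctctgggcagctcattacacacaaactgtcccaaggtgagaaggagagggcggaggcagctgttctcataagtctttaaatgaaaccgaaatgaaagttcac
Atg5, chr10:44268089-44268338: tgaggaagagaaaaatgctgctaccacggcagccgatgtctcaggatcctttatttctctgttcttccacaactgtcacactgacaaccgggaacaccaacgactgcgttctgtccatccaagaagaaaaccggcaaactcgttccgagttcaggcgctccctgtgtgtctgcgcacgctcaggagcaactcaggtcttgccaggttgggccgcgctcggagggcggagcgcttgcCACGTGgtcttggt
Map1lc3b, chr8:121590188-121590360: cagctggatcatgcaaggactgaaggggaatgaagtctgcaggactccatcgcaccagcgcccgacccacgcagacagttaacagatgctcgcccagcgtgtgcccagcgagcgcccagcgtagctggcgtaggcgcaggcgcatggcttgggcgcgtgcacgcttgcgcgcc
The Lamp1 stretch holds 4 copies, whose first bases lie at -61, -45, -28 and -15 from the start. Atg5 has 1 copy, at -14, while these letters do not occur in the stretches of Ctss and Map1lc3b. A match describes letters only, and no binding was measured.

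The sums hold between 700961 counts (the HSC sum of m605, 11 cells) and 22896639 counts (the HSC sum of m4539, 158 cells). HSC-gated cells were shallower, with a median of 3689 detected genes, against 6201 in monocyte-gated cells. In the monocyte gate, 13 of 14 monocyte markers exceeded 10 counts in at least 10% of cells, and in the HSC gate 14 of 18 HSC markers did. Of 18 erythroid markers, 3 did so in the HSC gate. Erythroid markers summed to 4560 to 5529 CPM there, where HSC markers summed to 5113 to 6953 CPM, and to 260 to 749 CPM in the monocyte gate. Basophil or mast cell markers summed to 2193 to 3865 CPM in the HSC and 2362 to 2837 CPM in the monocyte gate. Neutrophil granule and related markers were also present in the monocyte gate, at a summed 15260 to 18540 CPM, against 18280 to 27500 CPM in the neutrophil gate. Macrophage markers summed to 4.93 to 73.9 CPM in monocyte-gated and 0 to 34.9 CPM in HSC-gated cells, and C1qa, C1qc and Cd5l had no count in the monocyte gate. Dendritic cell markers summed to 174 to 331 CPM in monocyte-gated and 170 to 384 CPM in HSC-gated cells. Lymphoid markers differed without overlap, at a summed 899 to 2066 CPM in the monocyte gate and 64.9 to 422 CPM in the HSC gate. Most of this was Nkg7, a gene of cytotoxic granules (820.5 CPM over all monocyte-gated and 94.3 CPM over all HSC-gated cells), while Il7r, Ebf1 and Pax5 stood below 1 CPM in both gates. Xist stood at 0.156 CPM and Eif2s3y at 131 CPM over all kept cells of m4528, while Xist was at 181 to 1243 CPM in the other 4 mice. Fits between gates keep the mouse as a block, and some members are compared below in cells thinned to equal depth. The part of cells with neutrophil, lymphoid or erythroid markers in the results below was not tested.

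Of the 19 lysosome genes tested between monocyte-gated and HSC-gated cells, 9 rose and none fell at an adjusted p under 0.05, while 8.93% of all 15323 genes tested were called, 5.21% higher and 3.73% lower. Their median log2 fold change was 1.70, against 0.06 over all genes. Because the list was drawn up with earlier results of these data known, such counts, here and below, do not test it as a set. Without m4528, 3 of the 9 were still called (Ctss, Ctsz and Npc2), and without m606 only Ctsz was; each of these leaves 2 monocyte sums. Of the 18 autophagy genes, 2 fell and none rose, with a median of -0.81; neither of the 2 was called without m4528 or without m606. Tests were edgeR quasi-likelihood F tests with Benjamini-Hochberg adjustment over all genes, with 3 monocyte and 5 HSC sums in a fit over 20 sums. Because each mouse is a block, m4539, which has an HSC sum only, does not inform the fold changes between gates. Both gates have sums in 3 mice only (m4528, m605 and m606), as m4533 has no monocyte sum. HSC means over 5 mice pool all days. All fold changes are on the log2 scale and carry their SE after the ± sign, mean CPM carry the SD over mice, and gene coordinates are those of GRCm38.

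**Figure D1:**
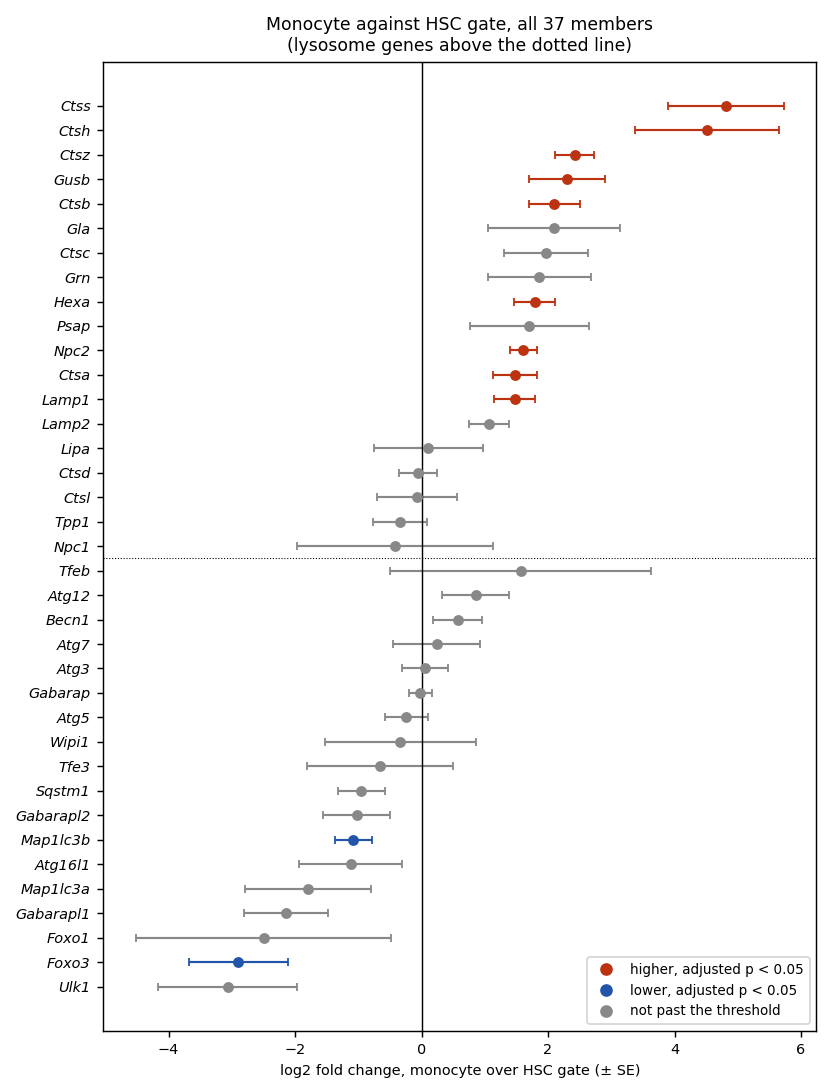
Log2 fold change of the monocyte over the HSC gate (x axis) for each of the 37 members (y axis), with bars of 1 SE; red marks the 9 lysosome genes called higher and blue the 2 genes called lower. Ctss and Ctsh lie farthest to the right, at 4.81 and 4.51, while most autophagy genes lie left of 0.

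The lysosome's membrane is coated by Lamp1 and Lamp2, glycoproteins that shield it from its own enzymes. Lamp1 had 648, 584 and 653 CPM in the monocyte sums of m4528, m605 and m606. In the HSC sums it had 144 (m4539), 183 (m4533), 123 (m4528), 340 (m605) and 265 CPM (m606). Every monocyte sum lay above every HSC sum and above all sums of the other gates, and the log2 fold change was 1.47 ± 0.33 (SE, adjusted p = 0.0138). In the HSC sum of m605, 84.5% of the Lamp1 counts came from 1 cell. Lamp2 had 412, 249 and 221 CPM in the monocyte sums of m4528, m605 and m606 and averaged 137 CPM in the HSC gate (n = 5 mice). Its groups did not overlap, but its fold change of 1.06 ± 0.32 missed the threshold (adjusted p = 0.0541).

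Cathepsins gave the widest range of differences. Cathepsin S (Ctss, chr3:95526786-95556403), a cysteine protease that cuts the invariant chain of MHC class II, had 594.5 (m4528), 434.5 (m605) and 391 CPM (m606) in monocyte-gated cells. Its HSC sums held 12.4 (m4539), 1.70 (m4533), 47.0 (m4528), 9.27 (m605) and 24.9 CPM (m606). Every monocyte sum lay far above every HSC sum, and the log2 fold change was 4.81 ± 0.92 (adjusted p = 0.00563). The call was lost without m605 (adjusted p = 0.0557), without m606 (adjusted p = 0.0566) and with cells gated by mean marker level (adjusted p = 0.0954). Cathepsin H (Ctsh, chr9:90054152-90076089), an aminopeptidase, had 586, 334 and 293 CPM in the monocyte sums of m4528, m605 and m606. In the HSC sums of m4539, m4533, m4528, m605 and m606 it had 35.4, 2.35, 82.5, 4.63 and 9.97 CPM. These did not overlap either, although HSC levels spread widely (log2 fold change 4.51 ± 1.14, adjusted p = 0.0259); without any 1 of m4533, m4528, m605 or m606 the adjusted p lay between 0.0567 and 0.219.

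Cathepsin Z (Ctsz, chr2:174427493-174439039), a carboxypeptidase, had 1295, 1092 and 768 CPM in the monocyte sums of m4528, m605 and m606. HSC sums held 106 (m4539), 199 (m4533), 262 (m4528), 173 (m605) and 187 CPM (m606). It was the member with the lowest adjusted p, 0.00044, at a log2 fold change of 2.42 ± 0.31, and the groups did not overlap. Cathepsin B (Ctsb), an endo- and exopeptidase, had 747, 686 and 462 CPM in the monocyte sums of m4528, m605 and m606, against 185 ± 81.8 CPM in HSC-gated cells (SD, n = 5 mice), again without overlap (2.10 ± 0.41, adjusted p = 0.00624). Cathepsin A (Ctsa), which also protects beta-galactosidase and neuraminidase in a complex, had 511, 137 and 276 CPM in the same monocyte sums, against 44.8 to 203 CPM in HSC-gated cells. Its m605 monocyte sum lay inside the HSC range (1.47 ± 0.35, adjusted p = 0.0186), and it was not called without the mouse block (adjusted p = 0.127). Within each of the 3 mice with both sums, all 5 of these cathepsins were higher in the monocyte gate.

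The remaining cathepsins did not pass. Ctsc, which activates granule serine proteases, had 578, 181 and 194 CPM in the monocyte sums of m4528, m605 and m606, against 106 ± 75.6 CPM in HSC-gated cells (SD, n = 5 mice; 1.97 ± 0.66, adjusted p = 0.084). Cathepsin D (Ctsd), the main aspartic protease of the lysosome, had 433, 243 and 332 CPM in the monocyte sums of m4528, m605 and m606. The HSC gate gave 290, 145, 364, 429 and 344 CPM in m4539, m4533, m4528, m605 and m606. The ranges lay across each other, with a log2 fold change of -0.06 ± 0.29 whose sign changed with the settings, from 0.06 without a filter on low counts to 1.01 where each cell weighed the same. Ctsl averaged 105 ± 34.7 CPM in monocyte-gated and 90.9 ± 41.7 CPM in HSC-gated cells and likewise overlapped.

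Among the other hydrolases, beta-hexosaminidase alpha (Hexa), which degrades gangliosides, had 768, 402 and 537 CPM in the monocyte sums of m4528, m605 and m606. In the HSC sums of m4539, m4533, m4528, m605 and m606 it had 178, 190, 244, 75.7 and 154 CPM, all below the monocyte range (1.79 ± 0.32, adjusted p = 0.00387). Beta-glucuronidase (Gusb) had 326, 351 and 207 CPM in the same monocyte sums, against 4.63 to 102 CPM in HSC-gated cells (2.31 ± 0.60, adjusted p = 0.0299). Alpha-galactosidase A (Gla) also separated the gates, at 63.2 to 85.7 CPM in monocyte-gated and 0.118 to 30.7 CPM in HSC-gated cells, but missed the threshold (2.09 ± 1.05, adjusted p = 0.246). In the HSC gate of m4539, 99.1% of its counts came from 1 cell. No such separation was seen for Lipa and Tpp1. Lipa, the acid lipase that frees cholesterol, had 96.5, 30.8 and 59.0 CPM in monocyte-gated cells of m4528, m605 and m606 and 17.4 to 81.9 CPM in HSC-gated cells (0.11 ± 0.86, reversed to -0.06 with median-ratio scaling). The peptidase Tpp1 averaged 84.7 ± 20.4 CPM in monocyte-gated and 94.9 ± 43.2 CPM in HSC-gated cells.

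Cholesterol leaves the lysosome through Npc2, a soluble carrier, and Npc1, the membrane protein it hands over to. Npc2 had 2543, 2169 and 1634 CPM in the monocyte sums of m4528, m605 and m606. Levels in HSC sums were 663, 906, 873, 457 and 639 CPM in m4539, m4533, m4528, m605 and m606. The gates did not overlap and the log2 fold change was 1.61 ± 0.21 (adjusted p = 0.000497). Npc1 did overlap, at 1.11 to 24.7 CPM in monocyte-gated and 1.55 to 26.9 CPM in HSC-gated cells.

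Saposin precursor (Psap), whose fragments assist sphingolipid hydrolases, and progranulin (Grn), which is cut into granulins in the lysosome, were higher in monocyte-gated cells of each mouse without passing the test. Psap had 168, 33.1 and 83.2 CPM in the monocyte sums of m4528, m605 and m606, against 14.9, 0.529, 35.7, 26.3 and 23.0 CPM in the HSC sums of m4539, m4533, m4528, m605 and m606 (1.70 ± 0.94, adjusted p = 0.302). Grn had 188, 250 and 172 CPM in these monocyte sums, against 37.7, 75.1, 51.2, 111 and 23.0 CPM in these HSC sums (1.86 ± 0.82, adjusted p = 0.184). The monocyte sum of m605 was the one that overlapped for Psap, while Grn did not overlap. Counted over the list, 14 of 19 lysosome genes were higher in the monocyte gate in 3 of 3 mice (24.9% of all genes), 11 had every monocyte sum above every HSC sum (8.48% of all genes), and 7 (Lamp1, Ctsh, Ctss, Ctsz, Gla, Hexa and Npc2) had every monocyte sum above all sums of the other gates (1.24% of all genes).

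**Figure D2:**
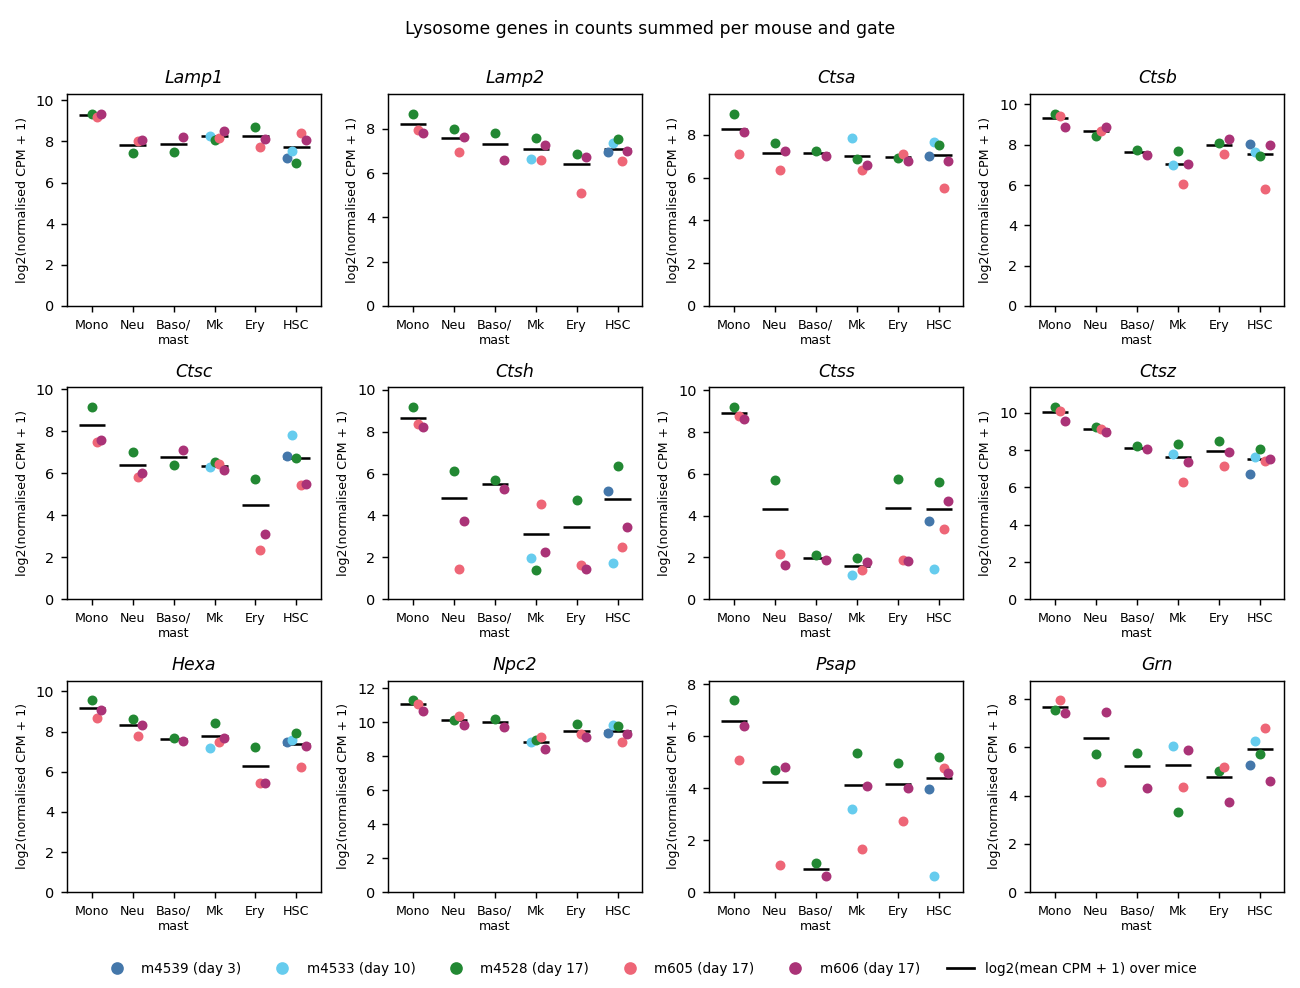
Normalised CPM on a log2(CPM + 1) scale (y axis) of 12 lysosome genes by gate (x axis), 1 point per mouse, with a bar at the mean CPM over mice. Points of the monocyte gate stand above those of all other gates for Lamp1, Ctsh, Ctss, Ctsz, Hexa and Npc2, and Ctss reaches at most 53.5 CPM in any sum of the other gates.

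To compare cells of unlike depth, each was thinned to 10000 counts. Ctss then had a count in 73.5% of monocyte-gated cells (75 of 102, exact 95% interval 63.9 to 81.8%) and in 4.33% of HSC-gated cells (15 of 346, 2.45 to 7.05%). Unthinned, 76.5% of monocyte-gated and 2.02% of HSC-gated cells had more than 10 counts. Ctsh was found in 72.5% of monocyte-gated and 8.96% of HSC-gated thinned cells, and Lamp1 in 89.2% of monocyte-gated and 32.7% of HSC-gated ones. Members without a difference in the sums had such gaps too. Ctsd (log2 fold change -0.06) was found in 70.6% of monocyte-gated and 38.7% of HSC-gated cells, and Gabarap (-0.02) in 88.2% and 70.2%. A gap in shares alone therefore does not mark a difference in the summed level, in which deeper cells weigh more. Ctss in erythroid-gated cells, which are not known to use it, was found in 4.505% (5 of 111, 1.479 to 10.2%). It was found in 2.06% of megakaryocyte-gated, 3.70% of neutrophil-gated and 7.69% of basophil or mast cell-gated cells, so the HSC share lay within the range of these gates. Intervals cover counting error only, and cells of 1 mouse are not independent.

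Among the autophagy genes, the Atg8 family held the one that was called in both the monocyte and the erythroid gate. Map1lc3b (chr8:121590361-121598760), which encodes Lc3b, had 377, 252 and 258 CPM in the monocyte sums of m4528, m605 and m606. Its HSC sums held 798 (m4539), 1039 (m4533), 862 (m4528), 289 (m605) and 696 CPM (m606). The m605 HSC sum lay inside the monocyte range and all others above it, and Map1lc3b fell by 1.08 ± 0.29 on the log2 scale (adjusted p = 0.0344). Without m4533 the adjusted p was 0.0545. Gabarapl1, its relative, had 14.9, 57.3 and 20.7 CPM in the monocyte sums of m4528, m605 and m606, against 131, 133, 136, 111 and 100.5 CPM in the HSC sums of m4539, m4533, m4528, m605 and m606. Although no sum overlapped, the fold change of -2.14 ± 0.66 missed the threshold (adjusted p = 0.0622). The highest Gabarapl1 sum outside the HSC gate was 66 CPM, in the megakaryocyte gate, so the 5 HSC sums were also the 5 highest of all 20.

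Gabarapl2 averaged 19.7 ± 2.63 CPM in monocyte-gated and 40.3 ± 8.24 CPM in HSC-gated cells, without overlap (-1.03 ± 0.53, adjusted p = 0.263). Gabarap averaged 644 ± 85.5 CPM in monocyte-gated and 616 ± 151 CPM in HSC-gated cells (-0.02 ± 0.18). Within the family, fold changes thus ran from -0.02 (Gabarap) to -2.14 (Gabarapl1). Map1lc3a overlapped, at 1.75 to 28.6 CPM in the monocyte and 7.33 to 46.4 CPM in the HSC gate. Gabarapl1 and Gabarapl2 were the 2 of 18 autophagy genes with every monocyte sum below every HSC sum (6.53% of all genes), and 7 of 18 were lower in 3 of 3 mice (14.6% of all genes).

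Upstream of the Atg8 proteins, Ulk1, the kinase that starts autophagy, had 6.12, 0.470 and 4.58 CPM in the monocyte sums of m4528, m605 and m606. In HSC sums it stood at 29.7, 106, 68.4 and 32.6 CPM in m4539, m4533, m4528 and m606 and no count in m605, which allows up to 4.63 CPM (3 counts). The m605 sum went against the other 4, and the fold change was -3.07 ± 1.101 (adjusted p = 0.107). Without m605 Ulk1 was called (-2.87, adjusted p = 0.0422). Becn1, a subunit of the lipid kinase complex, averaged 164 ± 36.7 CPM in monocyte-gated and 142 ± 70.9 CPM in HSC-gated cells. The conjugation genes Atg3, Atg5, Atg7, Atg12 and Atg16l1 had adjusted p between 0.361 and 0.955, with log2 fold changes of -1.12 (Atg16l1) to 0.86 (Atg12). Wipi1, which binds the forming membrane, had a fold change of -0.34 ± 1.19. None of these 6 was called.

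The cargo receptor Sqstm1 (p62) had 41.5, 55.2 and 89.3 CPM in the monocyte sums of m4528, m605 and m606, against 77.2, 129, 115, 153 and 88.2 CPM in the HSC sums of m4539, m4533, m4528, m605 and m606. The highest monocyte sum lay above the 2 lowest HSC sums, and the fold change was -0.95 ± 0.37 (adjusted p = 0.138).

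The FoxO factors induce autophagy genes in several tissues. Foxo3 (chr10:42181841-42276755) had 15.3, 32.6 and 17.1 CPM in the monocyte sums of m4528, m605 and m606. Its HSC sums held 85.1 (m4539), 61.5 (m4533), 93.3 (m4528), 547 (m605) and 32.6 CPM (m606). It fell by 2.90 ± 0.78 on the log2 scale (adjusted p = 0.0343), with the highest monocyte and the lowest HSC sum almost level. The m605 HSC value rested on 354 counts in 11 cells, 48.9% of them from 1 cell, and without m605 the fold change was -1.87 (adjusted p = 0.107). In cells thinned to 10000 counts, Foxo3 was found in 11.8% of monocyte-gated and 17.9% of HSC-gated cells, but in 27.0% of erythroid-gated cells. Foxo1 averaged 2.57 ± 2.96 CPM in monocyte-gated and 21.0 ± 13.98 CPM in HSC-gated cells, with no count in the HSC sum of m605.

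Tfeb and Tfe3, the factors known to switch on lysosomal genes, had low counts. Tfeb had 2.30, 0 and 5.69 CPM in the monocyte sums of m4528, m605 and m606, against 5.90, 0.529, 5.32, 0 and 0.767 CPM in the HSC sums of m4539, m4533, m4528, m605 and m606. A count of 0 allows up to 0.705 CPM in the m605 monocyte sum and 4.63 CPM in its HSC sum. Tfe3 averaged 12.8 ± 8.97 CPM in monocyte-gated and 14.05 ± 5.26 CPM in HSC-gated cells. No difference of either factor was detectable at this depth.

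**Figure D3:**
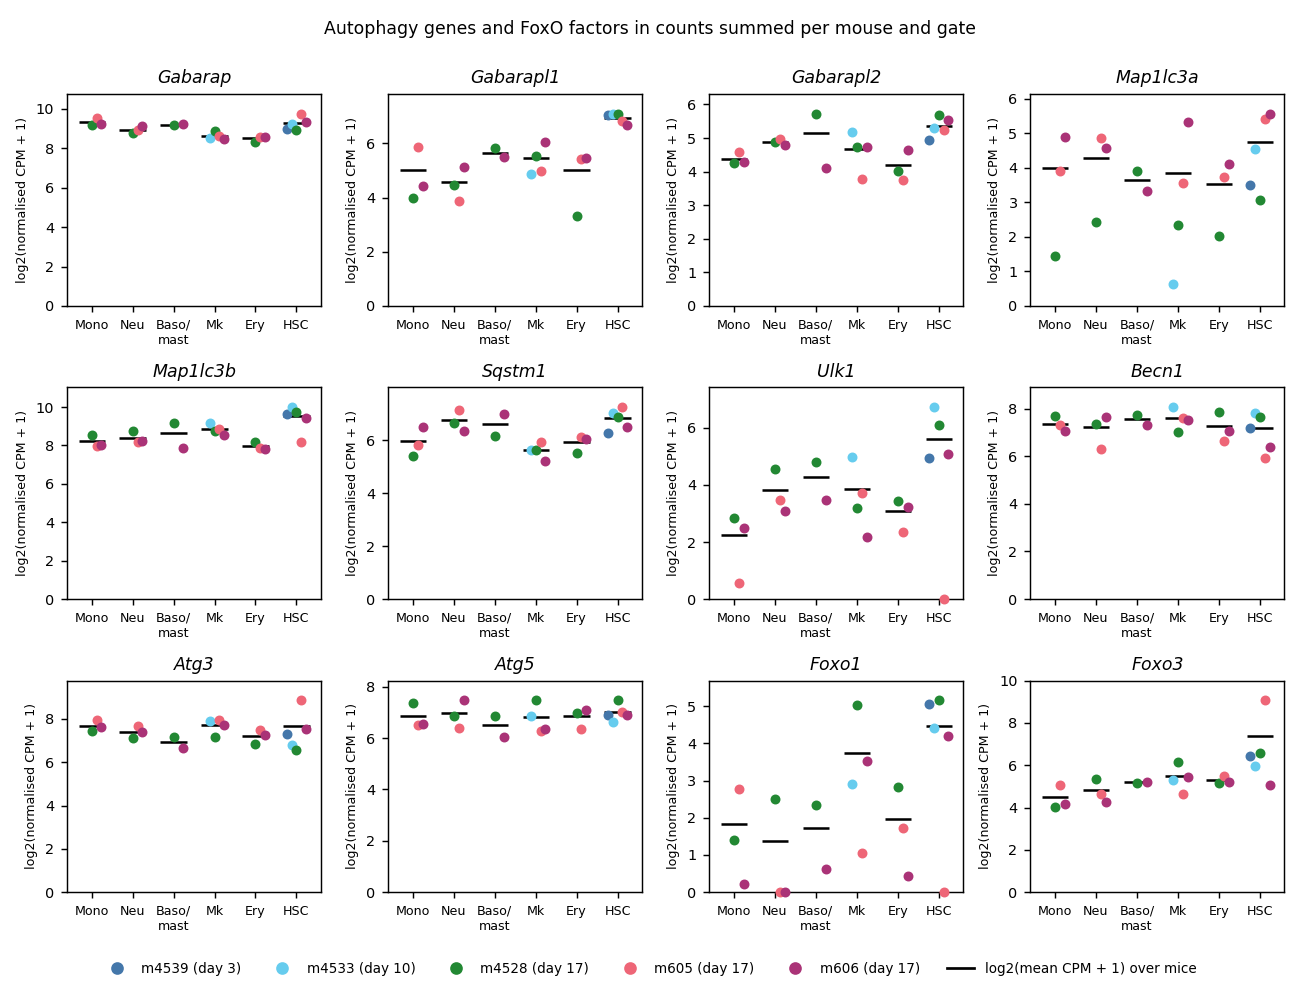
Normalised CPM on a log2(CPM + 1) scale (y axis) of 12 autophagy and FoxO genes by gate (x axis), 1 point per mouse, with a bar at the mean CPM over mice. The 5 HSC points of Gabarapl1 stand above all other gates, and the m605 HSC point of Foxo3, at 547 CPM, lies far above the rest.

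Summed over the lists, lysosome genes made up 0.906% (m4528), 0.629% (m605) and 0.663% (m606) of all counts in monocyte-gated cells. In HSC-gated cells they made up 0.254% (m4539), 0.274% (m4533), 0.327% (m4528), 0.193% (m605) and 0.294% (m606). Every monocyte sum lay above every HSC sum. Autophagy genes took 0.158 to 0.171% of counts in the monocyte sums and 0.251 to 0.279% in the HSC sums, so the lists ran opposite ways. Npc2 and Ctsz supplied 36.96 to 43.5% of the lysosome counts in monocyte-gated and 30.2 to 40.1% in HSC-gated cells; without them the list still took 0.356 to 0.565% in monocyte sums, against 0.135 to 0.209% in HSC sums. Gabarap and Map1lc3b supplied 49.9 to 54.1% of the autophagy counts in monocyte-gated and 41.2 to 58.8% in HSC-gated cells, and without them the list took 0.0749 to 0.0856% in monocyte sums, against 0.104 to 0.152% in HSC sums. These sums are descriptions and carry no test.

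**Figure D4:**
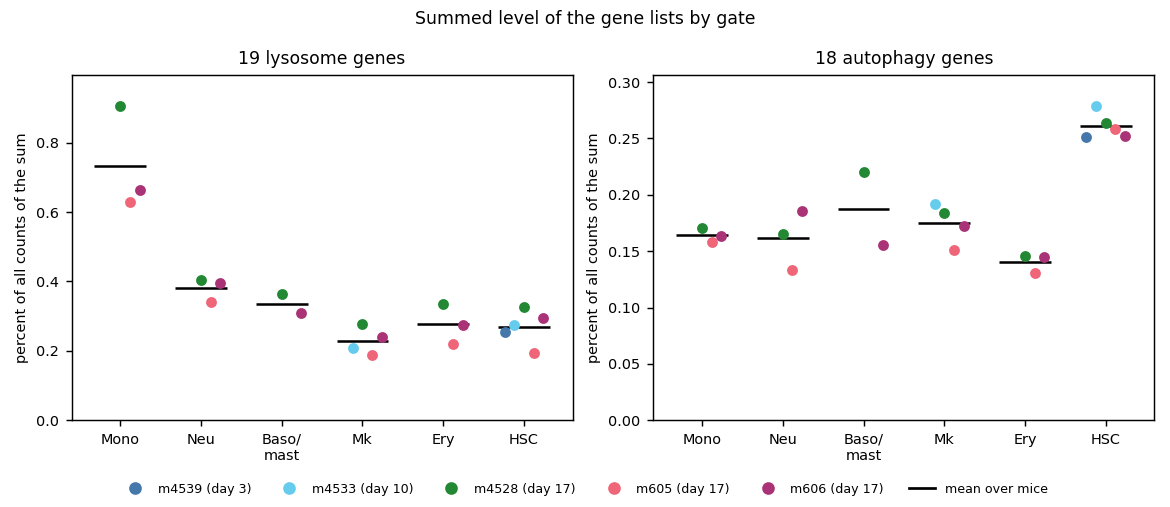
Percent of all counts (y axis) taken by the 19 lysosome genes (left) and the 18 autophagy genes (right) in each gate (x axis), 1 point per mouse and a bar at the mean. The monocyte gate is highest on the left, from 0.629 to 0.906%, and the HSC gate is highest on the right, from 0.251 to 0.279%.

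Further genes of the same pathways were tested between monocyte and HSC gates as well, where 5.21% of all genes were called higher and 3.73% lower. Each list held 0 to 3 calls, too few to set it apart from that background, so the genes are given singly. Of 37 other lysosomal hydrolases and activators tested, 1 rose and none fell: the asparaginyl peptidase Lgmn had 16.8, 8.46 and 37 CPM in the monocyte sums of m4528, m605 and m606 but at most 0.529 CPM in any HSC sum (adjusted p = 0.0053). Among 30 membrane and trafficking genes, Cd68 (3.42 ± 0.98, adjusted p = 0.0459) and Litaf (2.61 ± 0.65, adjusted p = 0.0235) rose. The tetraspanin Cd63 fell, with 32.1 to 48.3 CPM in monocyte-gated and 77.2 to 314 CPM in HSC-gated cells (-2.13 ± 0.48, adjusted p = 0.0142). Of 17 subunits and partners of the V-ATPase, the proton pump of the lysosome, Atp6v0b (1.098) and Atp6v0e (0.73) rose. None of 31 other core autophagy genes was called by edgeR, with 4 at an unadjusted p under 0.05, against 3662 of 15323 genes tested. Of 18 receptors, the ER-phagy receptor Retreg1 fell (-2.95 ± 0.60, adjusted p = 0.00819) and Phb2, better known as a mitochondrial prohibitin, rose (1.32). Of 33 upstream regulators, the Ragulator subunit Lamtor4 rose (1.65) and the arginine sensor Castor1 fell, with 0.238, 0 and 0.316 CPM in the monocyte sums of m4528, m605 and m606 and 18.4 to 34.6 CPM in the HSC sums. Median log2 fold changes of these lists ran from -0.81 for receptors to 0.90 for hydrolases, against 0.06 over all genes. Against the mean of the other progenitor gates, Cd68 (3.99), Laptm5 (1.54), Asah1 (2.00), Gm2a (2.42), Plbd1 (5.98), Scpep1 (3.47) and Tfec (3.02), a relative of Tfeb, were among those higher in the monocyte gate, and Cd63 (-2.06) and the receptor Optn (-3.71) were lower.

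Set against the mean of the neutrophil, basophil or mast cell, megakaryocyte and erythroid gates, 12 of 19 lysosome genes rose in the monocyte gate and none fell, while 4.71% of all genes were called, 3.80% higher and 0.907% lower. The fold changes were 6.81 ± 0.71 for Ctss (adjusted p = 8.86e-05), 4.78 ± 0.79 for Ctsh, 3.58 ± 0.73 for Psap, 2.33 ± 0.45 for Ctsc and 2.32 ± 0.61 for Grn. Ctsz, Hexa, Ctsb, Npc2, Lamp1, Lamp2 and Ctsa lay between 1.21 and 1.93. Without m4528, 5 of the 12 were called (Ctss, Ctsh, Ctsz, Hexa and Npc2), and without m606, 3 were (Ctss, Ctsz and Npc2). None of the 18 autophagy genes was called by edgeR in this contrast, and 2 had an unadjusted p under 0.05, against 2194 of 15323 genes tested. In the mean over mice, the monocyte gate was the highest of the 6 gates for 16 of 19 lysosome genes, as it was for 16.0% of all genes. The exceptions were Ctsd and Npc1, highest in the basophil or mast cell gate, and Tpp1, highest in the erythroid gate (12.5% and 20.8% of all genes had their highest mean in these gates). The HSC gate was the highest for 9 of 18 autophagy genes, against 23.8% of all genes.

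Neutrophil-gated cells, also myeloid, were summed in the same 3 mice. Ctsz had 597, 564 and 496 CPM in the neutrophil sums of m4528, m605 and m606, above all HSC sums, and rose by a log2 fold change of 1.51 ± 0.31 (adjusted p = 0.0143), but was not called without m4528 (adjusted p = 0.119) or m606 (adjusted p = 0.263), nor with a gate that asks for a lead of 10 percentage points over the next list (1.11, adjusted p = 0.316). It was the only member called, with 4.33% of all genes called (2.92% higher and 1.42% lower). No autophagy gene was called by edgeR. At an unadjusted p under 0.05 there were 5 of 18 autophagy genes, against 3032 of 15323 genes tested. Gabarapl1 lay just outside the adjusted threshold (-2.50 ± 0.66, adjusted p = 0.0502). Directly between monocyte and neutrophil gates, Ctss was called (5.82 ± 1.08, adjusted p = 0.0415), where 0.352% of all genes were (0.15% higher and 0.202% lower). Ctss had 50.9, 3.46 and 2.09 CPM in the neutrophil sums of m4528, m605 and m606, and 64.0% of the first came from 1 cell. This call was lost without any 1 of m4528, m605 or m606 and without the mouse block (replicate block; adjusted p = 0.273). Although 18 of 19 lysosome genes had a positive monocyte over neutrophil fold change, with a median of 1.05 against 0.05 over all genes, the other 17 positive ones did not pass.

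In the erythroid gate, with 11.6% of all genes called (5.87% higher and 5.78% lower), 3 members fell against the HSC gate. Hexa had 150, 41.8 and 42.5 CPM in the erythroid sums of m4528, m605 and m606 (-1.24 ± 0.33, adjusted p = 0.0267). Map1lc3b had 290, 235 and 224 CPM (-1.30 ± 0.29, adjusted p = 0.012) and Gabarap 320, 379 and 380.4 CPM (-0.86 ± 0.18, adjusted p = 0.00879). Without the mouse block, Hexa (adjusted p = 0.134) and Gabarap (adjusted p = 0.0564) were not called, none of the 3 was called without m4528 or without m606, and where each cell weighed the same the fold changes of Hexa (0.46) and Gabarap (0.17) had the opposite sign and Map1lc3b was not called (-0.76, adjusted p = 0.0604). In the megakaryocyte gate (3.32% of all genes called, 1.69% higher and 1.63% lower) Gabarap and Sqstm1 fell. Gabarap had 365, 459, 393 and 347 CPM in the megakaryocyte sums of m4533, m4528, m605 and m606 (-0.69 ± 0.16, adjusted p = 0.0355), and Sqstm1 had 48.0, 48.5, 60.8 and 36.3 CPM (-1.32 ± 0.33, adjusted p = 0.0472). Both calls were lost without the mouse block (adjusted p = 0.131 and 0.0986) and without any 1 of m4533, m4528, m605 or m606, and also with each cell weighted the same (adjusted p = 0.933 for Gabarap and 0.476 for Sqstm1) or with the stricter gate (adjusted p = 0.314 for Gabarap and 0.0631 for Sqstm1). No member was called in the basophil or mast cell gate, where 2 mice had sums. Of all genes, 0.476% were called there (0.405% higher and 0.0718% lower). At an unadjusted p under 0.05 there were 5 of 37 members, against 2114 of 15323 genes tested. DESeq2 called 3 members lower in this gate, and its share over all genes is not given here. These comparisons share the HSC sums.

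**Figure D5:**
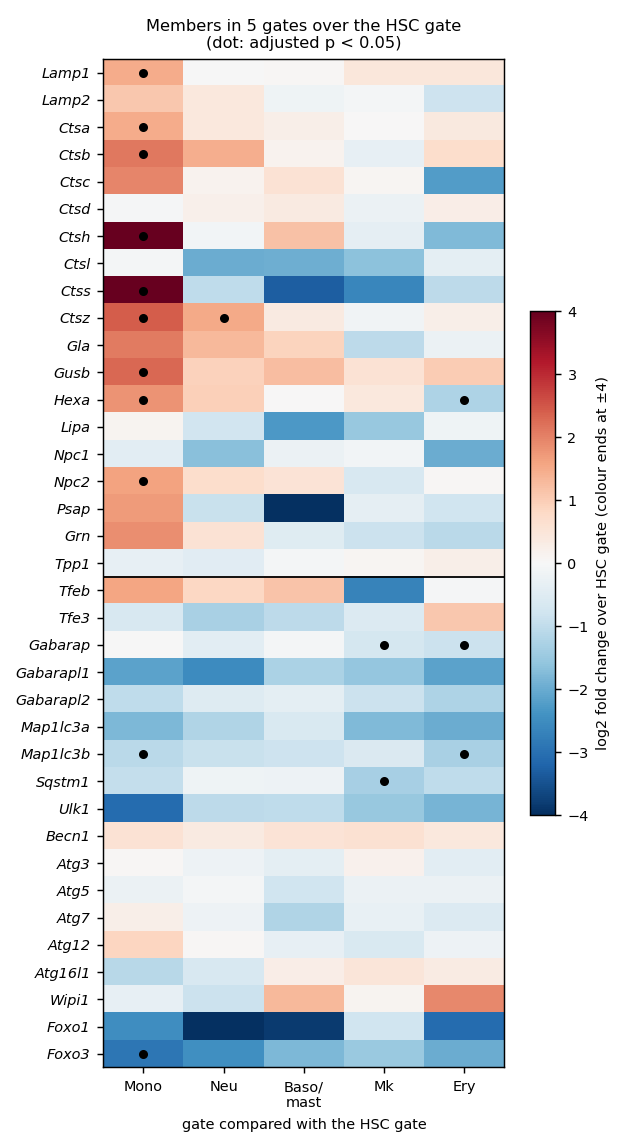
Log2 fold change (colour, ends at ±4) of each of the 37 members (rows) in 5 gates over the HSC gate (columns), with a dot at an adjusted p under 0.05. Red in the upper rows is deepest in the monocyte column, and the FoxO, Ulk1 and Gabarapl1 rows are blue in all 5 columns.

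Across days, HSC-gated cells showed no called change. Map1lc3b had 798 CPM at day 3 (m4539), 1039 CPM at day 10 (m4533) and 616 ± 295 CPM at day 17 (SD, n = 3 mice). Gabarapl1 had 131, 133 and 116 ± 18.3 CPM, Ctsz 106, 199 and 207 ± 47.8 CPM, and Lamp1 144, 183 and 243 ± 110 CPM in the same order of days. Days 3 and 10 have 1 mouse each, so their spread is unknown, and a lack of calls does not show that levels stayed the same. The edgeR slope over day, with the count table as a term and 2 residual degrees of freedom, called 0 of 14930 genes (0.0%) and no member. The second count table holds day 17 only, from m605 and m606, so this slope rests on m4539, m4533 and m4528. Of these, m4528 also differed in Xist and Eif2s3y, and day cannot be told apart from that difference. The day 17 means above pool both count tables. At an unadjusted p under 0.05 there were 629 genes and 0 members, and DESeq2 called 7 genes and 0 members.

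Sums over all kept cells mix the gates. Ctss had 23.5 CPM at day 3, 66.7 CPM at day 10 and 109 ± 34.9 CPM at day 17, while Ctsz had 125, 245 and 450 ± 105 CPM. Gabarapl1 ran the other way, with 126, 84.7 and 49.0 ± 6.63 CPM, as did Map1lc3b with 749, 715 and 385 ± 101 CPM. No monocyte-gated cell was kept at day 3 and 3 were at day 10, against 27 to 42 per mouse at day 17, and HSC-gated cells were 83.2% of kept cells at day 3, 59.8% at day 10 and 7.69 to 27.8% at day 17. In such sums, fewer cells of a type and less RNA per cell cannot be told apart. The slope, which rests on m4539, m4533 and m4528 here too, called none of 18438 genes (0.0%) in edgeR. At an unadjusted p under 0.05 it had 1805 genes and 10 members, while DESeq2 called 496 genes and 4 members.

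The plate that held cells of m605 and m606 together took no part in these fits. Its 17 monocyte-gated cells had 342 CPM of Ctss, 204 CPM of Ctsh, 778 CPM of Ctsz and 441 CPM of Lamp1, against 0.810, 33.2, 122 and 59.9 CPM in its 16 HSC-gated cells. Map1lc3b stood at 192 CPM in its monocyte-gated and 779 CPM in its HSC-gated cells, Gabarapl1 at 30.2 and 116 CPM, and Foxo3 at 5.03 and 93.9 CPM. All 7 ran the same way as in the single-mouse sums, in cells of 2 of the same mice. Not every member did so. Gla, which had separated the gates, stood at 34.9 CPM in monocyte-gated and 44.5 CPM in HSC-gated cells of this plate. Gabarapl2, which had also separated them, was level here, at 24.6 and 24.3 CPM.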

How the data were processed

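Single cells were sorted into plates and sequenced at transcript 3′ ends with a Smart-seq2 variant, per the labels' protocols. The authors deposited counts per gene and barcode, not normalized, in 2 tables. The submitters' processing notes name GRCm38; for the aligner, the counter and any molecular identifiers, the sources used here give no name. The members and lists were chosen with earlier results of these data known, and the thresholds of the gate likewise with the data in view.

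Barcodes with at least 500 genes and 10000 counts were kept and gated by markers exceeding 10 counts (largest share of a list, at least 25%); dendritic, lymphoid, macrophage and stromal lists competed, and 134 of 1010 cells stayed ungated. Of 876 gated cells, 142 had a top share under 30%. No doublet caller was run. Counts were summed per mouse and gate (at least 10 cells) and tested with edgeR 4.0.16 (R 4.3.3): TMM, filterByExpr, quasi-likelihood F test, mouse as a block, 10 residual degrees of freedom, Benjamini-Hochberg over all genes. Days were fitted as a slope with the count table as a term. The block is the mouse, and plates and count tables go with it, so their parts cannot be told apart. Deviations of sums from gate means correlated at 0.0854 to 0.394 within a mouse and -0.322 to 0.193 between mice. The ranges overlap (medians 0.205 and -0.148). Taking deviations from means over few mice itself lowers the values between mice, so these are no independent baseline. SE is the fold change over the root of F. Every member past an adjusted p of 0.05, and 12 members called or not, are given by mouse; of further lists at most 5 genes. Alternatives were DESeq2 1.42.0, limma 3.58.1 on cell means, other scaling, filters, gates and minimum cell numbers, and leaving out each mouse. All kept cells of a mouse held 25449441 to 64254317 counts. Intervals and limits at 0 counts (3 counts) cover counting error only. Whether counting used strand is not given, so reads of overlapping and antisense genes cannot be told apart.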

Additional observations from a re-analysis of the deposited data

Results flagged for a closer look

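In 74 groups of 4 or 5 mice (1 gene in 1 gate each), 5 had a mouse far from the others. Chance gives about 1 in 20 groups where values have a normal spread. So few mice do not show whether these values spread so, and groups of 1 gate share their sums. In the HSC gate, m605 stood apart for 3 genes: Foxo3 at 546.8 CPM was the highest, with the next mouse at 93.3 CPM, Atg3 at 471.1 CPM was the highest, with the next at 185.6 CPM, and Atg7 at 23.17 CPM was the lowest, with the next at 42.96 CPM. This sum held 11 cells and 700961 counts, and 48.9% of its Foxo3 counts and 67.5% of its Atg3 counts came from 1 cell each. Wipi1 in the HSC gate was highest in m4539, at 33.46 CPM, with the next mouse at 7.72 CPM. Ctsh in the megakaryocyte gate was highest in m605, at 22.39 CPM, with the next mouse at 3.71 CPM. The part of single cells in these values was not tested beyond the shares given.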

How the results depend on the processing

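Members called in monocyte against HSC gate numbered 11 with the replicate block by mouse and 11 without it, of which 10 were shared, and 9 to 16 under all other settings but one; with each cell weighted the same (limma) they numbered 19. Leaving out 1 mouse gave 1 to 11. Against the mean of the other progenitor gates 12 were called, 10 without the block, and 3 to 12 with 1 mouse left out. In the neutrophil gate, 1 was called, 2 without the block, 7 with DESeq2, 2 with median-ratio scaling, 5 with the mixed plate added, 2 with cells gated by mean marker level, 11 in limma and 0 to 1 with a mouse left out. In the basophil or mast cell gate, 0 became 3 with DESeq2 and 1 in limma. In the megakaryocyte gate, 2 became 6 with DESeq2 and 4 in limma, none of the 4 among the 2, and 0 without the block, without the count filter, with the mean marker gate or with 5 cells per sum; a mouse left out gave 0 to 2. In the erythroid gate, 3 became 2 without the block, 10 with DESeq2, 5 with median-ratio scaling, 7 with the mixed plate and 12 in limma, none of the 12 among the 3, and 0 to 4 with a mouse left out. In monocyte against neutrophil gate, 1 became 0 without the block or with either other gate, 5 with DESeq2, 2 with the mixed plate, 6 in limma and 0 to 1 with a mouse left out. The change with day in all kept cells had 0, and 4 with DESeq2. For comparisons between gates, the share of all genes called under each other setting is not given. Changes in these counts therefore describe the settings and are not results about the members. A gate that asks for a lead of 10 percentage points was added after seeing the data; it kept 7 of the 11 calls in monocyte against HSC gate, 0 of 1 in the neutrophil gate, 0 of 2 in the megakaryocyte gate and 2 of 3 in the erythroid gate.

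Signs changed for few members. Between monocyte and HSC gates, Ctsd moved to 0.10 without the block, 0.06 without the filter, 0.36 with the mean marker gate, 1.01 in limma, 0.29 with the stricter gate, and ran from -0.29 to 0.29 with a mouse left out (0.09 without m606). Lipa moved to -0.056 with DESeq2 and -0.057 with median-ratio scaling, and ran from -0.28 to 1.04 with a mouse left out (-0.15 without m4533). Tfeb ran from -0.83 (without m606) to 2.43 with a mouse left out, and Sqstm1 was at 0.028 in limma. In the erythroid gate, Hexa was at 0.46 and Gabarap at 0.17 in limma. The cause was not tested. Median-ratio scaling moved the median of all genes by -0.13 (monocyte), -0.10 (neutrophil) and -0.17 (erythroid) against the HSC gate. Depth limits most the HSC sum of m605, where 0 counts allow up to 4.63 CPM.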
